A study of Mus musculus with 16 samples.

Results

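The comparison described here is loss of Cpeb2 in ductal progenitors of the mouse mammary gland: 2 arrays of Cpeb2 -/- cells against 2 arrays of Cpeb2 +/+ cells, 4 of the 16 arrays of the series. The 4 arrays were chosen by the labelled cell population and genotype, and every probe set of the array was a candidate. Each array came from 1 female mouse aged 10 weeks, of strain C57BL/6J 129. All 4 mice, wild types included, are labelled Sox2-Cre +/+, and no mouse without the Cre was analysed here. Sox2-Cre acts in the early embryo, so the deletion is not limited to mammary cells. Knockout mouse 1 and wild-type mouse 1 share a father and a mother, as do knockout mouse 2 and wild-type mouse 2, and these are called parent pairs 1 and 2 below. Each mouse also gave an array of non-clonogenic luminal cells, of alveolar progenitors and of myoepithelial cells. By the series' design, ductal progenitors were sorted as luminal cells positive for both Sca1 and CD49b, non-clonogenic luminal cells as Sca1 positive and CD49b negative, and alveolar progenitors as Sca1 negative and CD49b positive. The title names the question as translational control of the cytokine RANKL by CPEB2 in mammary development.

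CPEB2 is one of the cytoplasmic polyadenylation element binding proteins, which attach to the 3′ untranslated region of messenger RNAs and change the poly(A) tail and the rate of translation. In the luminal layer of the mammary gland, hormone-sensing cells carry the estrogen and progesterone receptors, and progesterone makes some of them release RANKL, which drives neighbouring cells to divide. Non-clonogenic luminal cells are rich in hormone-sensing cells, alveolar progenitors carry the receptor KIT and the transcription factor ELF5, and Sca1+ CD49b+ cells form colonies and hold some features of each.

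Values are log2 expression per probe set as deposited. For each of 17097 genes the probe set with the highest mean was used. Differences are knockout minus wild type with the standard error of one limma fit over all 16 arrays, and calls were made below 0.05 after Benjamini-Hochberg adjustment. The luminal label of the 4 ductal arrays was checked with the sort antigens: Epcam lay 1.06 ± 0.06 log2 units above myoepithelial cells, and Krt5 and Krt14, keratins of the myoepithelial layer, differed from them by -5.70 ± 0.11 and -6.04 ± 0.12. Itga2, which encodes CD49b, was 0.81 ± 0.17 above non-clonogenic luminal cells, a difference that missed the threshold (adjusted p = 0.052). Sca1 was not analysed here. Values of bulk samples cannot tell fewer cells of a type from less RNA per cell.

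The ductal array of wild-type mouse 1 stood apart. Across all probe sets but controls, the 2 knockout arrays correlated at r = 0.990 and the 2 wild-type arrays at r = 0.979. The arrays of parent pair 1 correlated at 0.947 and those of parent pair 2 at 0.980. Fibroblast markers were high in that array. Dpt, a matrix protein gene of fibroblasts, read 9.0 and 5.55 in wild-type mice 1 and 2 and 5.75 and 5.12 in knockout mice 1 and 2. Over the 12 measured fibroblast markers the summed log2 level was 97.5 in wild-type mouse 1, 82.2 in wild-type mouse 2, and 79.9 and 77.4 in the knockouts. Of these markers 10 had a lower mean in the knockout and 2 were called lower (Dcn and Postn), where 4.35% of all genes fell. The median difference of the 12 was -1.77 in parent pair 1 and -0.38 in parent pair 2. Pdgfra and Col1a2 read between 4.58 and 4.85 in the ductal arrays, below the lower quartile of probe sets, 5.13. Over 23 leukocyte markers the summed level was 123.8 and 126.1 in wild type and 128.9 and 128.8 in knockout. Of these, 1 was called higher, Csf1r (0.49), where 3.09% of all genes rose. For 11 endothelial markers the summed level ran from 67.7 to 69.7. Over 6 adipocyte markers it was 41.6 in wild-type mouse 1 against 38.4 in wild-type mouse 2 and 38.2 and 37.4 in the knockouts, and 1 of them, Lpl, was called lower (-1.99 ± 0.53). RNA measures also moved with genotype: the 3′ probe set of Gapdh exceeded the middle one by 0.60 and 0.39 in wild type and by 0.15 and 0.12 in knockout. The part of these measures in the results that follow was not tested. Of the called genes given by name, those also called without the ductal array of wild-type mouse 1 were Atad5, Cd1d1, Cyp1b1, Dclk1, Idh1, Muc15, Nox4, Nudt12, Rhbdl2, Ripply3, Rspo1, Sema3c and Tox2, and every other call given by name was lost without it.

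**Figure D1:**
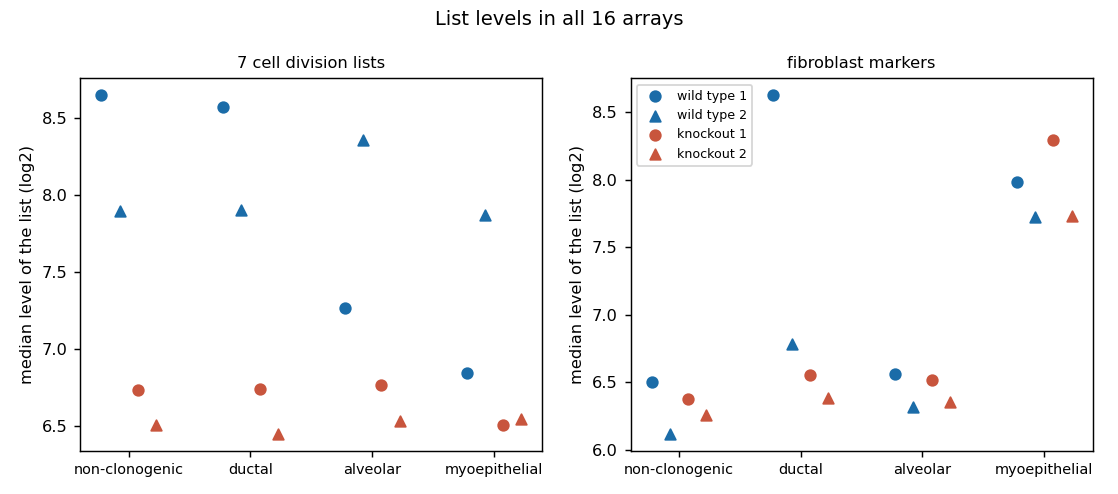
Median log2 level (y axis) of the genes of 7 cell division lists (left) and of 12 fibroblast markers (right) in each of the 16 arrays, by sorted population (x axis); points are single arrays, blue for wild type and red for knockout, circles for parent pair 1 and triangles for parent pair 2. The ductal array of wild-type mouse 1 has a fibroblast median of 8.62 against 6.38 to 6.78 in the other 3 ductal arrays, and the division median is higher in wild type than in knockout in each population.

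Cpeb2 itself read 7.88 and 8.00 in wild type and 6.39 and 7.35 in knockout, a difference of -1.08 ± 0.41 that did not pass the test (adjusted p = 0.113). The groups did not overlap, and knockout mouse 2 lay closer to wild type. A second probe set read 6.61 and 6.40 in wild type and 5.71 and 6.57 in knockout, and those values overlapped. The sources used here do not say whether these probe sets fall within the deleted sequence. Of the paralogs, Cpeb4 differed by -0.98 ± 0.38 and Cpeb3 by 0.11 ± 0.16, neither called, and Cpeb1 was under the lower quartile on both sides. Tnfsf11, the gene of RANKL, read 5.19 to 5.32 in wild type and 5.14 to 5.20 in knockout, near that quartile of 5.13, and differed by -0.09 ± 0.14. RNA levels near that floor would hardly show a fall, and protein was not measured.

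In knockout ductal progenitors 744 genes fell (4.35%) and 528 rose (3.09%), 1272 calls in all (7.44%). Of these, 461 fell by 1 log2 unit or more and 144 rose by as much. The 2 knockout values lay on one side of the 2 wild-type values, with the same sign in both parent pairs, for each of the 1272 called genes, but this held for 60.4% of the genes tested. Leaving out 1 array or 1 mouse can hardly change the sign of such a gene, so a kept sign is no measure of stability. Differences were larger in parent pair 1, where 1088 genes were at least 1 unit lower and 774 at least 1 unit higher, than in parent pair 2, with 412 and 127. Of the called genes, 645 of 744 falls and 457 of 528 rises were larger in parent pair 1. Without the ductal array of wild-type mouse 1, 47 genes were called, 44 of them among the 1272. Without that of knockout mouse 1 the count was 57, without that of knockout mouse 2 it was 283, and without that of wild-type mouse 2 it was 2945. In the 8 fits that left out a ductal array or a whole mouse, each of the 1272 genes kept its sign, while 35 were called without any 1 of the 4 ductal arrays.

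Many of the larger falls were in genes of DNA replication and mitosis. Many such genes share promoter elements. One is the cell cycle genes homology region, TTTGAA on either strand, which the DREAM and MYB-MuvB complexes bind through their subunit LIN54 in mammalian cells. These complexes silence division genes in resting cells and switch them on before mitosis. The stretches below come from called division genes with a single promoter in the RefSeq table (GRCm38.p6). Each gene also has the motif within 100 bases before its start. Not every chromosome was searched. All 4 stretches that qualified are shown, in order of the falls of their genes. Each is 60 bases long, lies upstream of the start and is read 5′ to 3′ in the direction of the gene, with TTTGAA or its reverse complement TTCAAA in capitals.
Kif11: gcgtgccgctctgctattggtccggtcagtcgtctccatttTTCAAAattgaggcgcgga
Cdk1: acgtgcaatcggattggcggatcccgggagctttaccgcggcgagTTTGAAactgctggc
Mcm2: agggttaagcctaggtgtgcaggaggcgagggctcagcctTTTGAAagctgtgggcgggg
E2f8: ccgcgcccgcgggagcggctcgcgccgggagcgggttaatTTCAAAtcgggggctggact
The stretches are at chr19:37376322-37376381 (plus strand) for Kif11, chr10:69352913-69352972 (minus) for Cdk1, chr6:88898831-88898890 (minus) for Mcm2 and chr7:48881597-48881656 (minus) for E2f8. The motif starts 19 bases before the gene start in Kif11, 15 in Cdk1, 70 in Mcm2 and 20 in E2f8. In windows from 250 bases before to 50 after the start, TTTGAA on either strand was in 22 of the 55 called division genes with a promoter in the table (40%), in 2129 of 13605 tested genes (15.65%) and in 5466 of all 27025 genes of the table (20.23%). CCAAT on either strand, the letters to which NF-Y binds, was in 33 of the 55 (60%), 5750 of the 13605 (42.26%) and 11096 of the 27025 (41.06%). Both motifs were in 16 of the 55 (29.09%), 839 of the 13605 (6.167%) and 2155 of the 27025 (7.974%). Neither motif contains the other. A match of letters is a description of the sequence and not a binding site.

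Across 7 lists of division genes, 126 genes were measured and 120 had a lower mean in knockout. Of the 126, 65 were called lower, against 4.35% of all genes, and 0 higher. The median difference was -1.40, against 0.08 over all genes, and it was -1.66 in parent pair 1 and -1.18 in parent pair 2. In 68 of the 126 genes the fall was 1 log2 unit or more in both pairs. In 116 the knockout values lay under both wild-type values, so leaving out 1 array could hardly change their sign. Over all genes 60.4% did not overlap, in either direction, with the same sign in both pairs. Without the ductal array of wild-type mouse 1, 119 of the 126 were still lower, with a median of -1.06, and 73 had an unadjusted p under 0.05, but 0 were called. Without that of knockout mouse 1, 3 were called, without that of knockout mouse 2, 7, and without that of wild-type mouse 2, 76.

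Among the cyclins and their kinases, 2 of 11 measured genes fell, against 4.35% of all genes. Ccna2, the A-type cyclin of S phase and mitotic entry, read 10.68 and 10.10 in wild type and 7.33 and 6.35 in knockout. Both knockout arrays lay well under both wild-type arrays, and the difference was -3.56 ± 0.66 (limma, adjusted p = 0.0147). Cdk1, the kinase that starts mitosis, read 9.75 and 9.58 in wild type against 7.49 and 6.62, a fall of 2.61 ± 0.57 (limma, adjusted p = 0.0252). Ccnb2 (-2.49) and Ccne1 (-0.60) had lower means and were not called. Of 12 E2F, MYB and FOXM1 genes, which drive division genes, E2f8, Tfdp1 and Mybl2 fell, by 1.53, 1.13 and 0.83, and 5 were called with the parent pair as a block. Of 14 genes of D cyclins, their kinases, CDK inhibitors and the retinoblastoma family, 2 fell, and 4 were called with that block. The 2 were Rb1 and Rbl1, the retinoblastoma protein and its relative p107, which fell by 1.53 ± 0.26 and 1.87 ± 0.38. The CDK inhibitor gene Cdkn1a differed by 0.87 ± 0.39 and was not called.

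Genes that load and open the replication fork fell together: 9 of 18 measured, against 4.35% of all genes. Mcm5, a subunit of the replicative helicase, read 11.00 and 9.83 in wild type and 7.63 and 6.93 in knockout, a fall of 3.13 ± 0.47 (adjusted p = 0.00641). Mcm2, another subunit, read 10.60 and 9.26 against 7.27 and 7.38, a difference of -2.60 ± 0.45. The helicase loaders Cdc6 and Cdt1 fell by 2.45, with knockout values under the lower quartile, and 2.39, and Mcm6 (-1.38) and Mcm7 (-0.64) were not called. In DNA synthesis, 18 of 25 fell. Pclaf, a partner of the sliding clamp PCNA, read 10.53 and 8.91 in wild type and 5.77 and 5.87 in knockout, and fell by 3.90 ± 0.65 (adjusted p = 0.00947). Wild-type mouse 1 was the highest of the 4 arrays for Pclaf, Mcm5 and Mcm2. Both subunits of ribonucleotide reductase, which makes deoxynucleotides, were lower (Rrm1 by -3.16 and Rrm2 by -3.13), as were the primase subunit Prim1 (-3.13 ± 0.45, adjusted p = 0.00537), Tyms (-2.35) and Pcna (-1.39). Fen1 (-0.75) and Dnmt1 (-0.44) did not pass.

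In mitosis, 6 of 17 kinase and checkpoint genes, 9 of 17 kinetochore genes and 18 of 26 spindle and cytokinesis genes fell. The share over all genes was 4.35%. Zwilch, of the kinetochore complex that brings in the checkpoint and dynein, read 9.40 and 9.02 in wild type and 5.57 and 5.32 in knockout, a difference of -3.76 ± 0.59 (adjusted p = 0.00732). The 2 parent pairs differed by nearly the same amount for Zwilch, -3.83 and -3.70. Ttk, the checkpoint kinase MPS1, read 8.82 and 7.98 against 5.32 and 5.10. The outer kinetochore subunit gene Spc25 (-3.41 ± 0.67), the centromere protein gene Cenpf (-3.55 ± 0.90) and Top2a, which untangles sister chromatids (-3.69 ± 0.64), fell too. The spindle motor gene Kif11 read 9.21 and 8.71 in wild type and 6.39 and 5.61 in knockout, a difference of -2.96 ± 0.68. Racgap1 of the cytokinesis ring fell by 3.54 ± 0.76, and its partner Ect2 read 8.31 and 7.26 against 4.35 and 4.0. Knockout values of Ect2, Cep55, Nusap1, Trip13 and Pbk lay under the lower quartile on average, so the size of their falls is uncertain. Without the array of wild-type mouse 1 their differences were -3.03, -3.70, -3.27, -2.77 and -2.59. Plk1 (-0.59), Aurka (-0.27) and Mad2l1 (0.21) were not called. Mki67, the proliferation marker, read 10.45 and 9.83 in wild type and 6.79 and 6.47 in knockout (-3.51 ± 0.79, adjusted p = 0.0273).

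**Figure D2:**
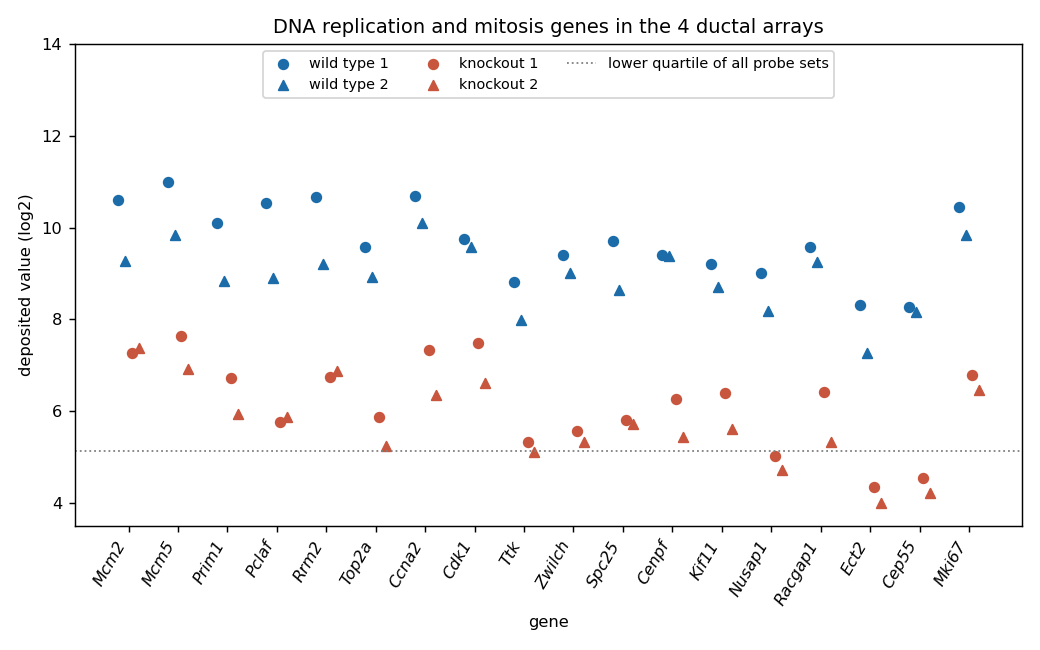
Deposited log2 values (y axis) of 18 called replication and mitosis genes (x axis) in the 4 ductal arrays, blue for wild type and red for knockout, circles for parent pair 1 and triangles for parent pair 2; the dotted line is the lower quartile of all probe sets, 5.13. Both knockout points lie under both wild-type points for each gene, and those of Ect2, Cep55 and Nusap1 lie under the dotted line.

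Division genes had a lower median level in the knockout in the other 3 populations too. Over the 126 genes the median level in wild type was 8.57 and 7.90 in ductal progenitors, 8.64 and 7.89 in non-clonogenic luminal cells, 7.26 and 8.35 in alveolar progenitors and 6.84 and 7.87 in myoepithelial cells. In knockout it lay between 6.45 and 6.76 in each of these populations. The knockout effect was tested for a difference between ductal progenitors and each other population. Of the 126 genes, 0 were called against non-clonogenic luminal cells, 0 against alveolar progenitors and 1 against myoepithelial cells. The shares over all genes were 0.0117%, 0.24% and 1.92%, so these counts are near the background and do not show equal effects. The gene called was Cdt1, which fell by 2.39 ± 0.33 in ductal progenitors and differed by -0.34 in myoepithelial cells. Cdt1 was chosen after its values were seen. The median division difference was -1.42 in non-clonogenic luminal cells, -1.16 in alveolar progenitors and -0.72 in myoepithelial cells.

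Called genes were then set along the axis from non-clonogenic luminal cells to alveolar progenitors, taken as the mean alveolar minus non-clonogenic difference in the 8 arrays of those populations. A gene was taken to differ little along the axis under 0.5 log2 units, and clearly from 1 unit with an adjusted p under 0.05. Ctsj, at 0.498, and Tmem237, at 0.50, were the called genes just inside and just outside the first limit. Of 13199 genes with little difference, 734 were called (5.56%), 406 lower and 328 higher. Of 1604 genes with a clear difference, 260 were called (16.2%), against the background of 7.44% over all genes. Among these 260, 214 differed toward the non-clonogenic luminal end, 134 of them lower and 80 higher, and 46 toward the alveolar end, 38 lower and 8 higher. The remaining 278 called genes lay between the limits.

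The split between the ends depended on which arrays set the axis. With both genotypes, 82.3% of the called axis genes differed toward the non-clonogenic end, against 67.9% of all axis genes. With the wild-type arrays alone, 149 differed toward that end and 108 toward the alveolar end, 58.0% against 56.8% of all axis genes. With the knockout arrays alone, 277 and 13 did, 95.5% against 76.0%. The knockout difference in non-clonogenic luminal cells enters the axis, and it had the same sign as the ductal difference in 724 of 744 called falls and 513 of 528 called rises. Each ductal array was also placed between the non-clonogenic (0) and alveolar (1) arrays of its own mouse. Over 1604 genes it was 0.391 and 0.254 in wild type and 0.153 and 0.186 in knockout, and over the 1624 genes clear on the wild-type axis it was 0.375, 0.263, 0.175 and 0.195. Both knockout arrays lay nearer the non-clonogenic end than both wild-type arrays. With 2 mice against 2 no permutation test can pass 0.05, and none was run.

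**Figure D3:**
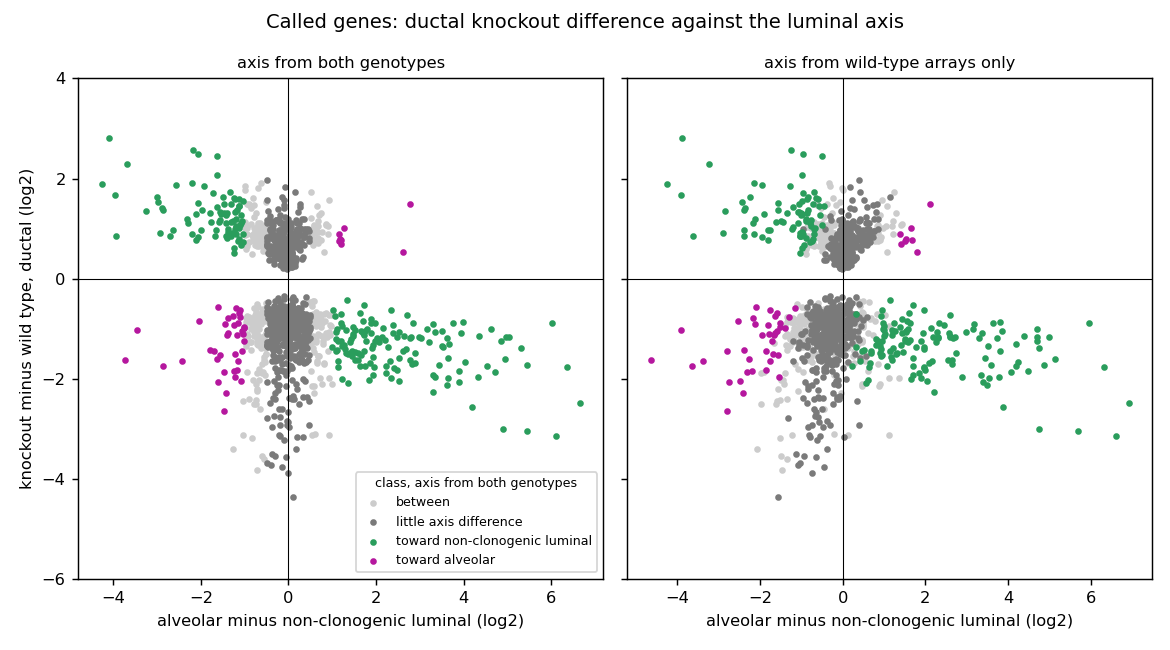
Ductal knockout minus wild-type difference (y axis, log2) against the alveolar minus non-clonogenic luminal difference (x axis, log2) for the 1272 called genes, with the axis taken from both genotypes (left) or from the wild-type arrays alone (right); each point is a gene, green toward the non-clonogenic end, magenta toward the alveolar end, dark grey with little difference and light grey between, by the axis from both genotypes. Of 214 green genes toward the non-clonogenic end, 134 are lower (lower right) and 80 higher (upper left); 46 are magenta.

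Among genes with little axis difference, 44 of the 406 falls were members of the division lists. F2r, the thrombin receptor PAR1, had the largest fall of the 406: it read 9.89 and 7.74 in wild type and 4.72 and 4.16 in knockout. F2r fell by 4.37 ± 0.75 (limma, adjusted p = 0.0106). Wild-type mouse 1 was 2 units above wild-type mouse 2, and without its array the difference was -3.33. Knockout values of F2r were under the lower quartile, so the size of its fall is uncertain. Idh1, the cytosolic isocitrate dehydrogenase that makes NADPH, read 9.74 and 9.55 in wild type and 7.43 and 7.46 in knockout. Its replicates agreed closely, it fell by 2.20 ± 0.22 (adjusted p = 0.000861), and it was called without any 1 of the 4 ductal arrays. Atad5, which unloads PCNA from DNA, read 8.61 and 8.43 against 6.34 and 6.44 (-2.13 ± 0.23) and was called without any 1 of the ductal arrays and of the mice. Idh1 and Atad5 were chosen for that after their values were seen.

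Rises among genes with little axis difference were smaller: 10 of 328 rose by 1 unit or more in both parent pairs, against 144 of 406 falls. Vps37b, a subunit of the ESCRT-I sorting complex, read 8.05 and 8.97 in wild type and 10.46 and 10.22 in knockout, a rise of 1.83 ± 0.34 (adjusted p = 0.0154). Mal, a membrane protein of apical transport in epithelia, read 8.77 and 9.41 against 10.78 and 10.67 (1.64 ± 0.28, adjusted p = 0.0106). Its relative Mall rose by 1.58 ± 0.35. The elongation factor gene Ell (1.72), the small GTPase gene Rab20 (1.56), the major vault protein gene Mvp (1.49) and Sbno2 (1.40) rose too. The survival gene Bcl2l1, which encodes BCL-XL, read 10.01 and 10.04 in wild type and 11.36 and 11.16 in knockout and rose by 1.24 ± 0.28. Without the ductal array of wild-type mouse 1 none of Vps37b, Mal, Mall and Bcl2l1 was called, with differences of 1.39, 1.34, 1.37 and 1.21.

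Falls toward the non-clonogenic end were genes high in alveolar progenitors. Muc15, a membrane mucin, read 8.76 and 8.13 in wild-type ductal progenitors and 5.28 and 5.50 in knockout. It read 9.35 to 10.30 in the 4 alveolar arrays and 4.25 to 4.37 in the 4 non-clonogenic ones, so wild-type ductal cells lay near the first and knockout cells near the second. The difference was -3.05 ± 0.21 (adjusted p = 8.91e-05), and -2.73 without the array of wild-type mouse 1 (adjusted p = 0.00056). Dclk1, a microtubule-linked kinase, read 10.74 and 9.70 in wild type and 6.82 and 7.33 in knockout, a difference of -3.14 ± 0.35 (adjusted p = 0.0017). Cyp1b1, a cytochrome P450 that oxidises estrogens, read 10.84 and 10.98 against 8.02 and 8.80, a fall of 2.49 ± 0.28 (adjusted p = 0.0017). In knockout both lay between the alveolar and non-clonogenic arrays. Both were called without any 1 of the 4 ductal arrays.

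Further falls toward that end were in the semaphorin gene Sema3c (-2.26 ± 0.32), the procollagen protease gene Adamts3 (-2.05 ± 0.30), Sertad4 (-2.06 ± 0.28), Nrep (-2.13 ± 0.37), and Plscr2 and Tmem47, whose knockout values lay under the lower quartile. Grb10, an adaptor that restrains insulin and IGF receptors, read 8.22 and 7.47 in wild type and 5.72 and 6.39 in knockout (-1.79 ± 0.27). Nox4, an NADPH oxidase gene, read 7.58 and 6.43 against 5.28 and 5.26 (-1.74 ± 0.28).

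Rises toward the non-clonogenic end were genes low in alveolar progenitors. Slc5a5, the sodium/iodide symporter, read 8.51 and 10.86 in wild type and 12.41 and 12.57 in knockout, a rise of 2.81 ± 0.63 (adjusted p = 0.0269). The wild-type arrays differed by over 2 units, and without that of mouse 1 the difference was 1.64 (adjusted p = 0.252). Gadd45g, a stress-response gene that binds CDK1 complexes, read 8.65 and 10.13 against 11.95 and 11.98 (2.57 ± 0.41, adjusted p = 0.00774), with 1.85 (adjusted p = 0.0677) without the array of wild-type mouse 1. Rhbdl2, a rhomboid protease, read 5.59 and 6.80 against 8.79 and 8.59 (2.50 ± 0.34, adjusted p = 0.00425), and Tox2, an HMG-box protein gene, read 7.73 and 7.74 against 9.74 and 9.48 (1.87 ± 0.20, adjusted p = 0.00144). Rhbdl2 and Tox2 were called without any 1 of the 4 ductal arrays. The rises of Gatb (2.45), Dkkl1 (1.91), Dmbt1 (1.89) and the cytokine signalling inhibitor Socs3 (1.85) were not called without the array of wild-type mouse 1.

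**Figure D4:**
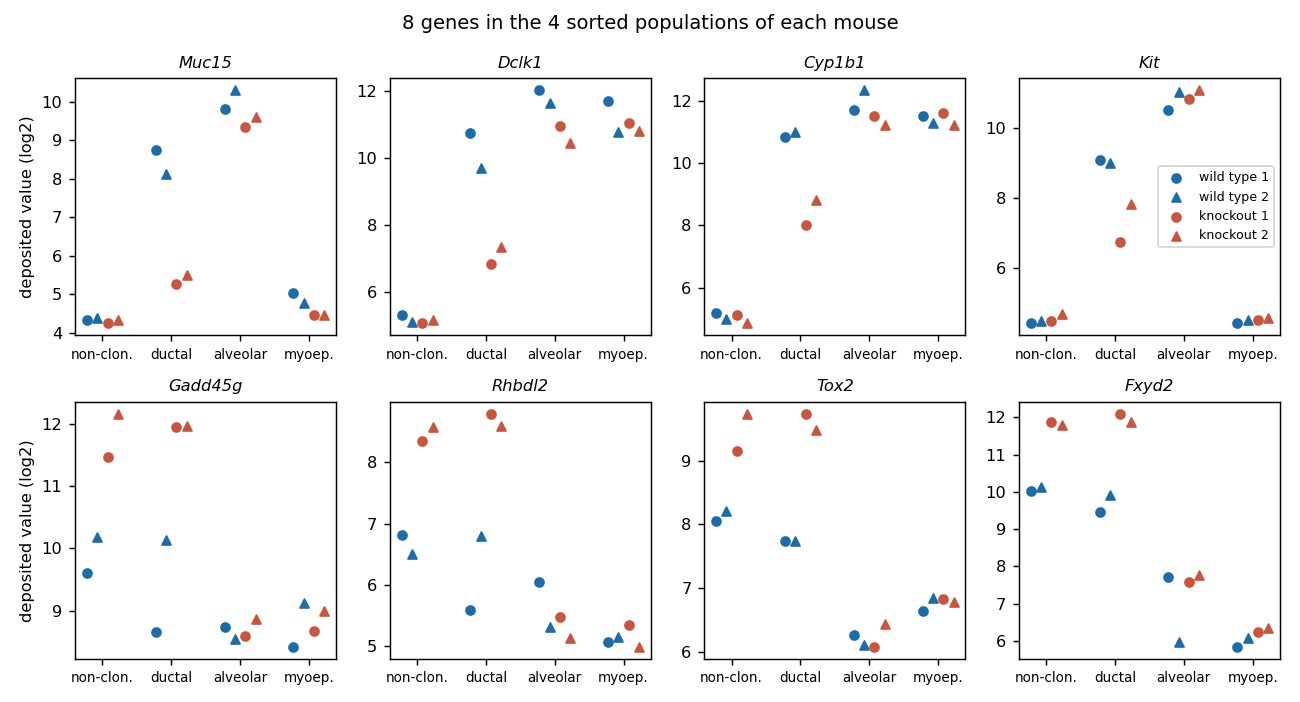
Deposited log2 values (y axes, ranges differ) of 4 genes that fell (top) and 4 that rose (bottom) in knockout ductal progenitors, in the 4 sorted populations (x axis) of each mouse; blue is wild type, red knockout, circles parent pair 1 and triangles parent pair 2. Knockout ductal points of Muc15, Dclk1, Cyp1b1 and Kit lie between the non-clonogenic and alveolar points, and Gadd45g, Rhbdl2, Tox2 and Fxyd2 are higher in knockout in both ductal and non-clonogenic cells.

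Genes called toward the alveolar end were few. Of the 38 falls, 22 were also called in non-clonogenic luminal cells, where 2.06% of all genes were called. None was called in alveolar progenitors, where the share over all genes was 0.62%, so a count of 0 is near the background. Cd1d1, which presents lipid antigens, read 9.67 and 9.55 in wild type and 7.60 and 7.53 in knockout (-2.05 ± 0.19, adjusted p = 0.000861), and was called without any 1 of the ductal arrays and of the mice. Nudt12, an NADH-degrading enzyme, fell by 2.28 ± 0.28, with knockout values under the lower quartile. Without the array of wild-type mouse 1 its difference was -1.89. Sftpd, a collectin of innate defence, read 9.86 and 8.08 against 6.02 and 6.61, and the aldehyde dehydrogenase gene Aldh3a1 fell by 2.06 ± 0.35. Dcn, the matrix proteoglycan decorin, read 10.29 and 9.63 in wild type and 8.23 and 8.00 in knockout (-1.84 ± 0.43). It is one of the fibroblast markers that were high in wild-type mouse 1, and without that array the difference was -1.49 (adjusted p = 0.285). Nnt, the mitochondrial transhydrogenase, fell by 1.96 ± 0.35. The C57BL/6J strain carries a deletion in Nnt, and the sources used here give the strain make-up of each mouse only as the shared label.

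The 8 rises toward the alveolar end were small. Papln read 6.23 and 6.95 in wild type and 8.01 and 8.15 in knockout (1.49 ± 0.33). The nuclear lamina gene Lmna read 10.53 and 10.44 against 11.64 and 11.33 (1.0 ± 0.23), and Itgb6, an epithelial integrin subunit, rose by 0.69 ± 0.15. Tnfrsf12a, Snhg17, Actn1, Klk11 and Pik3r1 rose by 0.53 to 0.89, and Pik3r1 had the other sign with its probe set of largest variance (-0.20).

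Markers of the luminal subtypes are mostly genes of that axis. The 4 hormone-sensing and 6 alveolar markers called below are among the 214 genes already counted toward the non-clonogenic end, so they are not a second result. Of 14 hormone-sensing markers, 4 rose, against 3.09% of all genes, and 0 fell. The median difference of the 14 was 0.68, and it was 0.59 and 0.56 in the 2 parent pairs. Esr1, the estrogen receptor, read 10.61 and 11.15 in wild type and 12.04 and 11.54 in knockout (0.91 ± 0.23, adjusted p = 0.0398). Fxyd2, a regulator of the sodium pump, read 9.46 and 9.92 against 12.09 and 11.87 (2.29 ± 0.40), and Ly6d and Prom1 rose by 2.07 ± 0.31 and 0.86 ± 0.22. The progesterone receptor gene Pgr differed by 1.28 ± 0.45 (adjusted p = 0.0945), and Foxa1 (-0.29 ± 0.41) and Cited1 (0.39 ± 0.63) by less than their spread. Without the ductal array of wild-type mouse 1 the median was 0.47 and 0 were called. Gata3, a luminal regulator, differed by 0.02 ± 0.27.

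Of 19 alveolar markers, 6 fell, against 4.35% of all genes, and 0 rose, with a median difference of -0.60. Kit read 9.07 and 9.0 in wild type and 6.73 and 7.82 in knockout, a fall of 1.76 ± 0.27 (adjusted p = 0.00732). Elf5, the alveolar transcription factor, read 10.27 and 9.13 against 7.66 and 8.52 (-1.61 ± 0.36). Ehf, Tfap2c and Lmo4 fell by 1.16, 1.07 and 0.90, and Rspo1, a Wnt amplifier, by 1.20 ± 0.19 with knockout values under the lower quartile. The list's median was -1.14 in parent pair 1 and -0.25 in parent pair 2. Without the array of wild-type mouse 1 it was -0.41 and 1 gene was called, Rspo1. Milk protein genes and Aldh1a3 (0.14 ± 0.26), a marker of alveolar progenitors, were not called, and the 19 genes had a median difference of -0.05 in non-clonogenic luminal cells and 0.15 in alveolar progenitors.

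**Figure D5:**
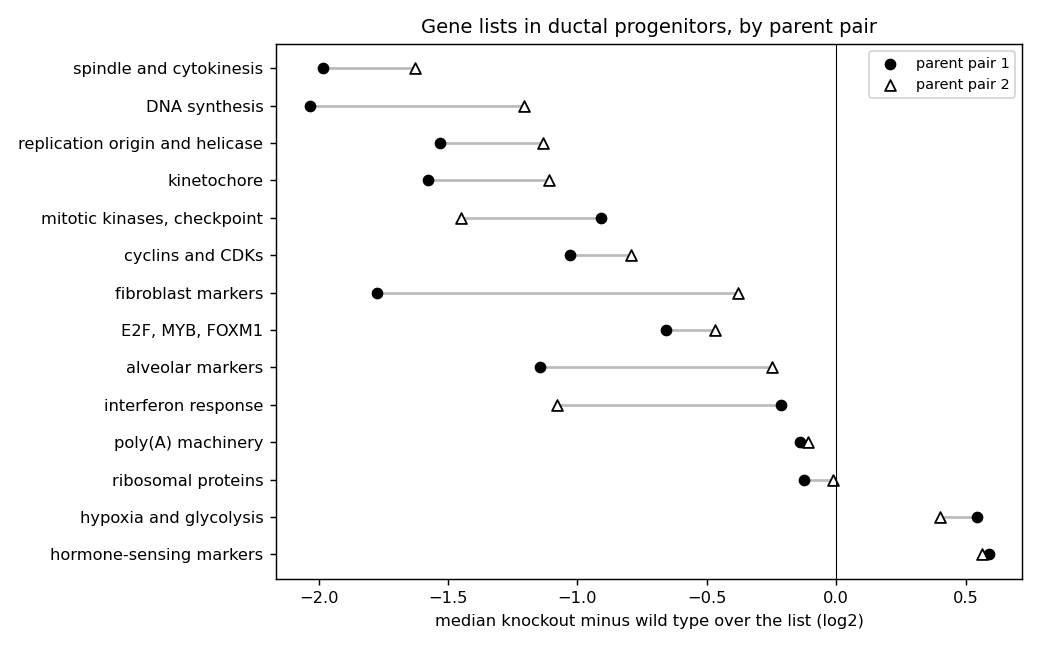
Median ductal knockout minus wild-type difference (x axis, log2) over each of 14 gene lists (y axis), in parent pair 1 (filled circles) and parent pair 2 (open triangles). Division lists and the alveolar, interferon and fibroblast lists lie below 0 in both pairs, hormone-sensing and hypoxia lists above 0, and the fibroblast median is -1.77 in pair 1 against -0.38 in pair 2.

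Of 26 interferon-response genes, 3 fell and 0 rose, and 8 were called with the parent pair as a block. Ifit1, an antiviral RNA-binding protein, read 9.77 and 10.46 in wild type and 7.53 and 8.53 in knockout (-2.08 ± 0.50). The GTPase gene Irgm1 and the RNA-sensing kinase gene Eif2ak2 fell by 1.24 ± 0.27 and 0.97 ± 0.22. The list's median was larger in size in parent pair 2 (-1.08) than in parent pair 1 (-0.21), and it was -1.02 without the array of wild-type mouse 1, where 0 were called. Of 18 hypoxia and glycolysis genes, Pkm and Aldoa rose, by 0.76 ± 0.18 and 0.95 ± 0.24, and 4 were called with that block. The median of that list was 0.57, and 0.18 without the array of wild-type mouse 1. Of 17 clock genes, Dbp (1.42), Bhlhe41 (0.83) and Bhlhe40 (0.80) rose. Of 15 p53 and GADD45 genes, Gadd45g and Aen (1.06) rose. Junb rose by 1.57 ± 0.38, 1 of 23 immediate early genes, which respond to tissue handling. Over all genes 4.35% fell and 3.09% rose, so 1 immediate early call is near the background. With the parent pair as a block, 2 immediate early, 2 unfolded protein response, 1 NF-κB, 3 antigen presentation and 2 myoepithelial genes were called, against 1, 0, 0, 1 and 1 without it. That block called 9.39% of all genes, against 7.44% without it.

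Of 31 genes of the poly(A) machinery, in which CPEB proteins act, 5 fell, against 4.35% of all genes, and 0 rose. The 5 falls were each under 1 unit. They were the deadenylase subunits Cnot7 (-0.82 ± 0.17) and Cnot6 (-0.75 ± 0.17), the deadenylase Parn (-0.71 ± 0.19), the nuclear poly(A) polymerase Tent4b (-0.77 ± 0.20) and Pabpc1, whose protein coats poly(A) tails (-0.53 ± 0.13). With the probe set of largest variance Pabpc1 had the other sign (0.09), Cnot7 differed by -0.13 (limma, adjusted p = 0.697) and 3 of the 31 were called. Array weights left 2 calls. The list's median was -0.13. Of 21 sphingolipid genes, 2 rose and 2 fell. The sphingosine kinases Sphk1 and Sphk2 rose by 1.91 ± 0.39 and 1.34 ± 0.37. Degs1, which completes ceramide, and Asah2, a ceramidase, fell by 1.29 ± 0.34 and 0.64 ± 0.14. Sphk1 read 7.69 and 8.85 in wild type and 10.55 and 9.80 in knockout, and the pairs differed by 2.86 and 0.95. Of 27 Wnt genes, Znrf3 fell (-1.12 ± 0.26), and Dkkl1, Wnt7b (0.84), Lrp5 (0.82) and Axin1 (0.78) rose. Over all genes 4.35% fell and 3.09% rose, so 1 Wnt fall is near the background. None of 20 ribosomal protein genes was called, and their median difference was -0.06.

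The knockout effect itself was then compared between populations. Against non-clonogenic luminal cells it differed for 2 genes (0.0117%), Muc15 and Lcn2. Muc15 fell by 3.05 in ductal progenitors and differed by -0.06 in non-clonogenic cells (difference of effects -2.99 ± 0.29, adjusted p = 0.00425). Lcn2, an iron-scavenging defence protein, read 12.20 and 11.67 in wild-type and 11.61 and 11.80 in knockout ductal cells, with no call there, and differed by -2.46 in non-clonogenic cells. Lcn2 was chosen after its values were seen. An unadjusted p under 0.05 was found for 537 genes in that contrast. Muc15 was also the 1 gene (0.00585%) that differed from the mean of the other 3 populations. Of the 1272 genes called in ductal progenitors, 259 were called the same way in non-clonogenic luminal cells, 28 in alveolar progenitors and 13 in myoepithelial cells. Of all 17097 genes, 353 (2.06%), 106 (0.62%) and 173 (1.01%) were called there in either direction. The myoepithelial count is near that share, though it holds only genes called in the same direction as in ductal progenitors.

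Against alveolar progenitors the effect differed for 41 genes (0.24%), 29 lower and 12 higher in ductal progenitors, of which 27 were among the called genes. Ripply3, a transcriptional corepressor gene, read 8.08 and 7.57 in wild type and 5.16 and 5.47 in knockout ductal cells, a fall of 2.51 ± 0.24, and differed by 0.12 in alveolar progenitors. Cd1d1, Nudt12 and Tgfbr3 were lower and Rhbdl2, Mal, Tox2, Mast3 and Ctnnbl1 higher in the same contrast. With the parent pair as a block, Rhbdl2 (adjusted p = 0.0515) and Ctnnbl1 (adjusted p = 0.0784) did not pass. Against myoepithelial cells it differed for 329 genes (1.92%). There Nox4 fell in ductal cells and differed by 1.42 in myoepithelial cells, and the imprinted gene Peg3 fell by 2.40 ± 0.39 in ductal cells, with knockout values under the lower quartile, and differed by 0.81 in myoepithelial cells. These counts rest on single arrays: the count against alveolar progenitors was 0 without the ductal array of knockout mouse 1, 5 without that of wild-type mouse 1, 1 without that of knockout mouse 2 and 887 without that of wild-type mouse 2. The count against myoepithelial cells was 0 without that of knockout mouse 1, 24 without that of wild-type mouse 1, 40 without that of knockout mouse 2 and 1728 without that of wild-type mouse 2.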

How the data were processed

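The deposited values are log2 expression per probe set of an Affymetrix mouse array, 45141 probe sets on 16 arrays. RMA and limma are named in the submitters' processing notes without role or version, and the sources used here do not describe background correction or filters. Per the labels' protocols, 15 ng of RNA was amplified and 8 µg of cDNA labelled. Values ran from 3.40 to 13.60 and array medians from 6.35 to 6.40, and the number of arrays limits the precision.

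Platform annotation gave 28898 probe sets 1 symbol, 551 several and 15588 none, beside 104 controls. Of the first, 28689 matched a current gene record. The 17097 genes were fitted with limma 3.58.1 and statmod 1.5.0 in R 4.3.3: 8 group means, mouse as a random block (correlation 0.0383), empirical Bayes with a variance trend, Benjamini-Hochberg adjustment over all genes. Errors after ± are standard errors with 2 mice per genotype, each array from a separate mouse within its population. Values under the lower quartile of probe sets, 5.13, were taken as near the floor, and the size of a difference that uses them is uncertain.

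The gene lists and the genes described were chosen with earlier results of these data known. Genes named were the sort antigens and Cpeb2, the 10 largest called rises and falls of all and of each axis class, up to 6 called members per list, and the 6 largest per direction in each contrast of populations, with non-overlapping replicates. Other genes named were list members. Replicate numbers mark a shared father and mother in the labels. Deviations of same-numbered arrays correlated at -0.0069 in ductal progenitors and -0.043 to 0.074 elsewhere. Alternatives covered probe set, dim genes, arrays in the fit, blocks, normalization, variance trend, array weights, left-out arrays and mice, and the limits and arrays of the axis. The axis from knockout arrays was chosen after seeing the data.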

Additional observations from a re-analysis of the deposited data

Results flagged for a closer look

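The following knockout effects differed between ductal progenitors and another population by a test of the difference itself (limma, adjusted over all genes). No explanation was tested for any of them.

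Muc15 had a more negative effect in ductal progenitors than in non-clonogenic luminal cells (-2.99, adjusted p = 0.00425), alveolar progenitors (-2.46, adjusted p = 0.0129), myoepithelial cells (-2.60, adjusted p = 0.0120) and the mean of the other 3 populations (-2.68, adjusted p = 0.00149).

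Against alveolar progenitors the effect was more negative for Ripply3 (-2.63), Cd1d1 (-2.44), Nudt12 (-2.29), Arhgef6 (-2.21) and Tgfbr3 (-1.99), and more positive for Rhbdl2 (2.88), Mal (2.55), Tox2 (1.81), Mast3 (1.63), Ctnnbl1 (1.59) and Cib1 (1.49), with adjusted p from 0.0129 to 0.0492. With the parent pair as a block, Rhbdl2 (adjusted p = 0.0515), Arhgef6 (0.0572), Cib1 (0.0718) and Ctnnbl1 (0.0784) did not pass. Arhgef6 and Cib1 were not called within ductal progenitors, where they differed by -0.40 and 0.25.

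Against myoepithelial cells the effect was more negative for Peg3 (-3.21), Nox4 (-3.16), Dclk1 (-2.84), Tmem47 (-2.76) and Grb10 (-2.61), and more positive for H2bc4 (3.04), Gatb (2.67), Gadd45g (2.51), Rhbdl2 (2.44), Sphk2 (2.30) and Hdac11 (2.13), with adjusted p from 0.0120 to 0.0473. With the parent pair as a block, Hdac11 did not pass (adjusted p = 0.0648). H2bc4 was not called within ductal progenitors, where it differed by 0.63. The knockout means of Peg3, Tmem47 and Nudt12 in ductal progenitors lay under the lower quartile, so the sizes of these differences are uncertain.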

How the results depend on the processing

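Counts of called genes depended on single arrays. Leaving out 1 ductal array or 1 mouse gave 17 to 3393 called genes, 6 to 2188 with little axis difference, 7 to 407 toward the non-clonogenic end and 1 to 144 toward the alveolar end. The contrasts of effects then gave 0 to 59 genes against non-clonogenic cells, 0 to 1340 against alveolar progenitors, 0 to 2076 against myoepithelial cells and 0 to 1396 against the mean of the others. All probe sets gave 2632 called probe sets, 1496 with little axis difference, 475 and 90 toward the ends, and 5 against the mean of the others, where the probe set of largest variance gave 2. The 4 ductal arrays alone gave 69, 38, 14 and 3, of which 66 of the 69 were lower. Array weights gave 847 called, 464 with little difference, 97 against alveolar and 30 against myoepithelial cells. The 12 luminal arrays gave 18 against alveolar progenitors, and no random block gave 217 against myoepithelial cells. A clear difference from 0.5 gave 339 and 139 toward the ends. The wild-type axis gave 108 toward the alveolar end and the knockout axis 13. With the probe set of largest variance, Pik3r1 (-0.20) and Pabpc1 (0.089) had the other sign. The parent pair as a replicate block gave 1606 called genes and ended 0 of the 174 calls of named genes within ductal progenitors, but ended 5 differences of effects between populations: Rhbdl2, Arhgef6, Cib1 and Ctnnbl1 against alveolar progenitors and Hdac11 against myoepithelial cells. The causes were not tested.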
